A study of Mus musculus with 76 samples.

Results

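The thermogenic and PGC-1 program was followed here through 10 genes, chosen by symbol: *Ucp1*, *Ucp2*, *Cidea*, *Elovl3*, *Prdm16*, *Ppargc1a*, *Ppargc1b*, *Esrra*, *Nrf1* and *Tfam*. The visceral white adipose tissue (WAT) table holds rows for all 10 of them among 18964 entries, and the liver table holds rows for 8 among 16775, without *Ucp1* and *Cidea*. The tissues came from female mice of C57BL/6 background that had free access to food and drink and carried either the C or the T variant of *Fnip2* in homozygosity. The *Fnip2* C/C mice carry a knock-in, made with CRISPR/Cas9, of a T-to-C change in a 3′UTR site for miR-181b-5p together with a G-to-C change that destroys the PAM, and the *Fnip2* T/T mice were their controls. The labels give no age and no littermate relation. RNA was sequenced from the 3′ end of transcripts (QuantSeq FWD) in 5 livers of each genotype, 4 *Fnip2* C/C WAT samples and 5 *Fnip2* T/T WAT samples, with 1 value per mouse and gene, and 6 mice gave both tissues.

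Brown and beige adipocytes burn fuel for heat by letting protons leak through UCP1 in the inner mitochondrial membrane, and their identity depends on the transcriptional coregulator PRDM16. Cold raises the coactivator PGC-1α (*Ppargc1a*) in brown fat. It and its relative PGC-1β (*Ppargc1b*) bind no DNA of their own and act through factors such as the estrogen-related receptor ERRα (*Esrra*) and nuclear respiratory factor 1 (*Nrf1*). Those factors drive the nuclear genes of oxidative metabolism and *Tfam*, whose protein packages and transcribes mitochondrial DNA. In liver PGC-1α is known for the fasting response rather than for heat.

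The libraries held 4180209 to 6277644 reads in WAT and 5583041 to 7523200 in liver. Genes of white adipocytes (12 of 12 with a row) were present in every WAT library, with summed normalized counts of 135631 to 378922 in *Fnip2* C/C and 304971 to 529654 in *Fnip2* T/T mice. By limma with Benjamini-Hochberg adjustment, 7 of the 12 were lower in *Fnip2* C/C mice, beside 17% of all genes tested in WAT. Their defining genes *Adipoq*, *Lep*, *Plin1* and *Retn* have no row in liver. Hepatocyte genes summed to 615155 to 823300 in liver. In WAT they summed to 31.6 to 122 in *Fnip2* C/C and to 147 to 258 in *Fnip2* T/T mice, without overlap. Lymphocyte genes in WAT summed to 430 to 641 in *Fnip2* C/C and to 745 to 1137 in *Fnip2* T/T mice, also without overlap. By limma, 1 of the 2 hepatocyte and 1 of the 3 lymphocyte genes tested in WAT were lower in *Fnip2* C/C mice. Apart from the blood genes below, the sums of the other cell types overlapped between the genotypes in WAT. Blood genes (the haemoglobins and *Alas2*) summed to 3045 to 4302 in *Fnip2* C/C WAT and to 10331 to 13806 in *Fnip2* T/T WAT, without overlap. Of the 5, 4 were lower in *Fnip2* C/C mice, beside the same 17% of all genes. The WAT library of *Fnip2* C/C mouse 593 stood apart by ovary genes, which summed to 24553 there against 51.4 to 142 in the others, and that of *Fnip2* T/T mouse 609 by skeletal muscle genes, at 3404 against 57.6 to 285 in the others. The RNA numbers in the labels were even for all 4 *Fnip2* C/C and odd for all 5 *Fnip2* T/T WAT libraries, so that anything that follows this numbering and the genotype cannot be told apart in WAT. The liver table also lists its even numbers before its odd ones, but there the even numbers belong by label to 2 livers of *Fnip2* C/C mice and 3 of *Fnip2* T/T mice, and the odd ones to 3 and 2. The labelled genotypes were used throughout, and whether that order reflects another assignment of the livers, on which the liver and interaction results would depend, was not tested. In bulk tissue, fewer cells of a type and less RNA per cell cannot be told apart, and the part of these cell mixtures in the differences below was not tested except where a value without those libraries is given.

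In WAT, 9 of the 10 genes had a mean normalized count of at least 10 and were tested, and 1 of the 9, *Esrra*, passed an adjusted p of 0.05 by limma, beside 32.1% of the 12798 genes tested. *Esrra* was lower in *Fnip2* C/C mice, as 17% of all genes tested were. Unadjusted, 2 of the 9 had a p under 0.05, beside 43.9% of all genes. On the recovered reads, edgeR called 2 of the 9 (32.4% of all genes) and DESeq2 3 of the 9 (36.9%). In liver, 7 of the 8 genes with a row were tested and none passed, beside 0% of 11710 genes. The thermogenic genes *Ucp1* and *Cidea* varied far more among mice of a genotype than between the genotypes, as the plot of the genes by mouse in WAT shows.

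**Figure D1:**
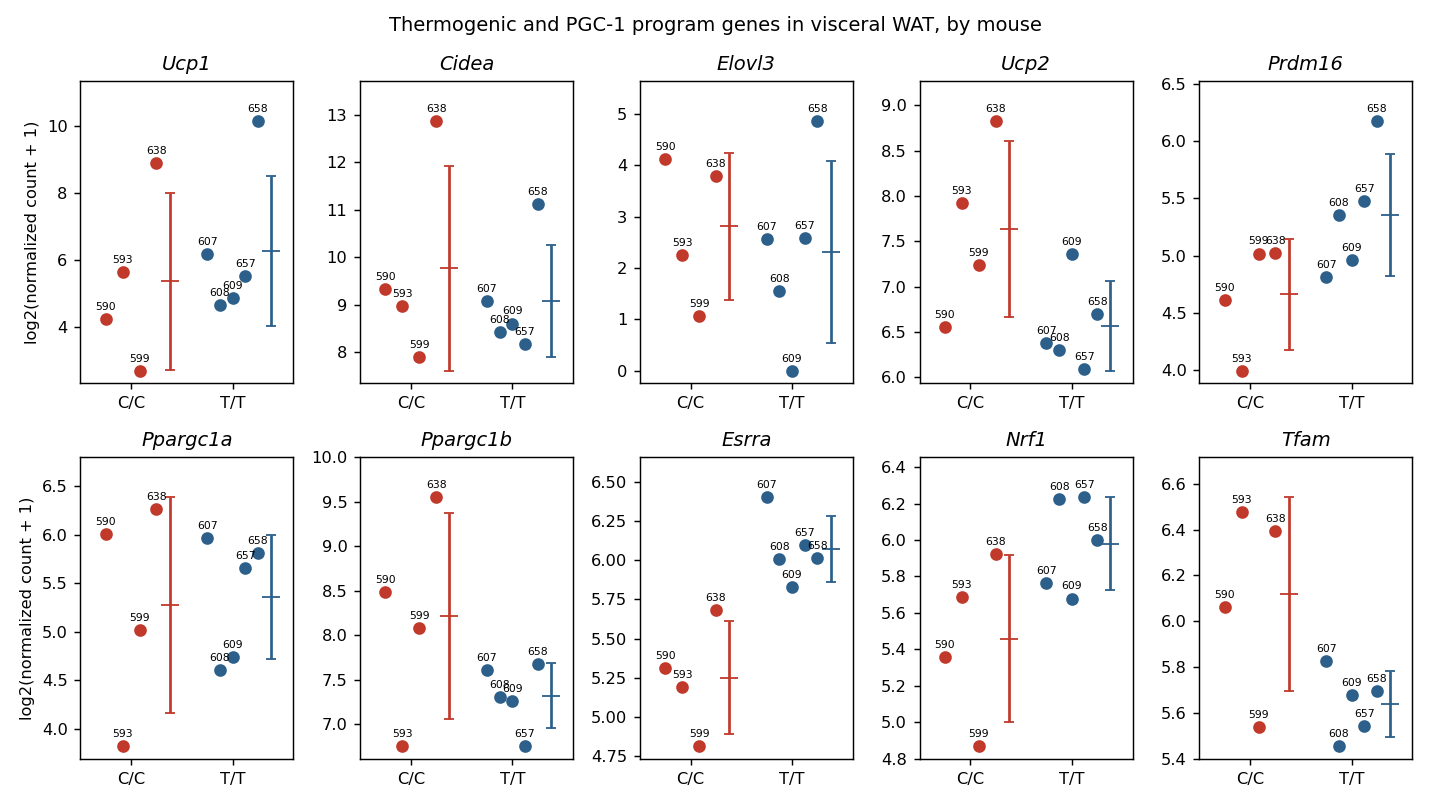
The 10 genes in visceral WAT as log2(normalized count + 1), 1 point per mouse with its number, and the mean ± SD of each genotype (4 *Fnip2* C/C in red, 5 *Fnip2* T/T in blue) as a bar; each panel has its own axis. Mice 638 and 658 stand above the rest of their genotype for *Ucp1* and *Cidea*, and *Esrra* is the gene whose genotypes do not overlap.

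RefSeq promoter windows (GRCm38.p6, 250 bases before to 50 after the start) were used for 7 of the 10 genes. They were searched on both strands for the core of the cAMP response element (TGACG), through which cold and fasting signals act, and for the core site of GABPA (CCGGAAG), an activator of *Tfam*. The first stood in the windows of *Ppargc1a*, *Ucp1* and *Ucp2* and in 20.8% of all 32851 windows, and the second in that of *Tfam* and in 8.86% of all. The stretches below show these matches in capitals, on the strand of the gene. For *Ppargc1a* and *Ucp2* the capitals are the reverse complement of TGACG. They lie at chr5:51567757-51567786 (minus strand), chr8:83290189-83290218 (plus), chr7:100493284-100493313 (plus) and chr10:71238073-71238102 (minus), all upstream of the start site.

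Ppargc1a: ggtgccctcccaCGTCActgagctccagtg

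Ucp1: gggctttgggagTGACGcgcggctgggagg

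Ucp2: ctggctccgcctCGTCAcgccacgccccga

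Tfam: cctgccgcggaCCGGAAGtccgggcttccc

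The full palindrome of the cAMP response element (TGACGTCA, in 1.79% of all windows), an ERR response element (TNAAGGTCA, 1.28%) and the palindromic NRF1 site (4.6%) matched in none of the 7 genes. A match describes these letters only.

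*Ucp1*, the proton carrier that defines brown and beige fat, was detected in all 9 WAT libraries. Its normalized counts were 17.6, 48.7, 5.42 and 476 in *Fnip2* C/C mice 590, 593, 599 and 638, and 70.6, 24.3, 27.9, 44.6 and 1137 in *Fnip2* T/T mice 607, 608, 609, 657 and 658. A single mouse in each genotype was far above the others, and the remaining libraries lay between 5.42 and 70.6. The range within *Fnip2* C/C mice was 87.7-fold and that within *Fnip2* T/T mice 46.7-fold. On the scale of log2(normalized count + 1), used for every fold change below and given as *Fnip2* C/C over *Fnip2* T/T, the difference was −0.91 ± 1.45 (SE), with a 95% confidence interval from −4.21 to 2.39 and an adjusted p of 0.662 by limma. Its sign depended on mouse 658, without which it was 0.06. Without both 638 and 658, which were chosen after seeing the data, it was −1.12 (adjusted p 0.235 by limma). DESeq2 gave no p for *Ucp1* or *Cidea*. The SD of *Ucp1* within genotypes, 2.43 on the log2 scale, ranked 49th of the 12798 genes tested (the top 0.383%).

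*Cidea*, which coats lipid droplets and is high in brown fat, followed the same libraries. It had 647, 499, 237 and 7507 normalized counts in *Fnip2* C/C mice and 537, 341, 388, 288 and 2224 in *Fnip2* T/T mice, in the same mouse order. Mice 638 and 658 were again the highest of their genotypes, with 638 the highest of all here and 658 the highest for *Ucp1*. Between genotypes it differed by 0.69 ± 1.00 (interval −1.58 to 2.97, adjusted p 0.628 by limma), and it became −0.34 without mouse 638. Its SD within genotypes was 1.67 (the top 1.21%).

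*Elovl3*, an elongase of very long chain fatty acids that cold induces in brown fat, fell below the minimum mean for testing in WAT (mean 8.23). It was at 16.5, 3.74, 1.08 and 12.9 normalized counts in *Fnip2* C/C mice and at 4.92, 1.95, 0, 4.96 and 28.0 in *Fnip2* T/T mice. The count of 0 in mouse 609 allows up to 3 reads, or 0.688 RPM (the reads of a gene scaled to the library total), counting error only. Mouse 658 had the highest level here as well, and the genotypes overlapped.

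The libraries of mice 638 and 658 also led most other brown adipocyte genes. Of 15 such genes tested beside the 10, 10 were highest in mouse 638 among *Fnip2* C/C mice and 10 were highest in mouse 658 among *Fnip2* T/T mice, where 27.5% and 21.3% of all genes tested peaked. Both mice were picked out by *Ucp1* and *Cidea* in these same libraries, so the counts are no separate test. Without mouse 638, 14 of the 15 genes met the minimum mean, and without mouse 658, 13 did. *Cox8b*, a muscle and brown fat subunit of cytochrome oxidase, was at 314, 196, 285 and 2343 normalized counts in *Fnip2* C/C mice and at 232, 150, 179, 193 and 617 in *Fnip2* T/T mice. *Cox7a1*, another such subunit, was at 17.6, 51.5, 20.6 and 288 against 23.0, 44.8, 68.1, 22.8 and 172. *Dio2*, the deiodinase that makes active thyroid hormone in brown fat, was at 5.88, 6.55, 2.17 and 7.03 against 20.5, 10.7, 7.81, 3.97 and 118, so that it was high in mouse 658 and not in mouse 638. Skeletal muscle genes, some of which brown fat shares, summed to 101 in mouse 638 and to 57.6 in mouse 658, the lowest of all WAT libraries. *Cox8b*, *Cox7a1* and *Dio2* were chosen after their values were seen.

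**Figure D2:**
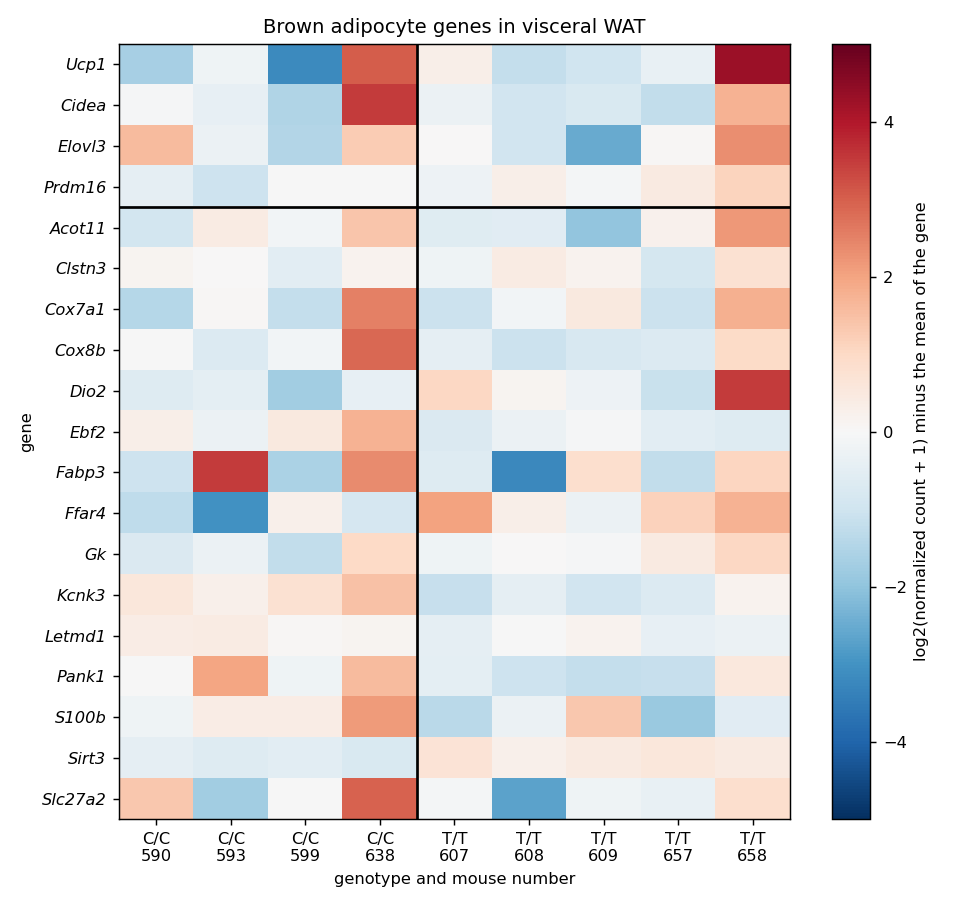
Brown adipocyte genes in the 9 visceral WAT libraries, as log2(normalized count + 1) minus the mean of each gene over the libraries (red above, blue below its mean), with *Ucp1*, *Cidea*, *Elovl3* and *Prdm16* above the horizontal line and the 15 further genes tested below it. The columns of mice 638 and 658 hold most of the red.

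The genes whose pattern over the 9 WAT libraries lay nearest to that of *Ucp1*, by root mean square difference of centred log2 values, were *Cidea* (1.22), *Gm10032* (1.25) and *Cox7a1* (1.34), where the SD of *Ucp1* over the libraries was 2.32. For *Cidea* they were *Cox8b* (0.59), the melanocortin receptor gene *Mc5r* (0.66) and *Ppara*, the receptor that drives fatty acid oxidation (0.80).

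By genotype, the 15 brown adipocyte genes gave 3 higher and 2 lower in *Fnip2* C/C mice with 10 not called, a share called of 33.3% beside 32.1% of all genes tested, and their median log2 fold change was 0.46 against 0.02 over all genes tested. *Kcnk3*, a potassium channel of adipocytes, was higher (3842 ± 1492, SD, n = 4, against 1483 ± 588, n = 5; log2 fold change 1.38, adjusted p 0.00484 by limma). *Sirt3*, the mitochondrial deacetylase, was lower (29.0 ± 2.63 against 62.4 ± 7.07; −1.08, adjusted p 0.00293 by limma). The 3 others called were *Ebf2* (1.01) and *Pank1* (1.49), both higher, and *Ffar4* (−2.18), lower, and were named after their values were seen. Leaving out 1 mouse at a time moved the list median between 0.04 and 0.97. Of 5 beige adipocyte genes tested, 1 was called (20%, beside 32.1% of all genes), *Epsti1*, which was lower (38.9 ± 8.79 against 63.9 ± 10.5; −0.71, adjusted p 0.031 by limma), and *Hoxc9* (−0.56, adjusted p 0.0721 by limma) was next in order of p. Their median was −0.46.

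*Ucp2*, a relative of *Ucp1* found in many tissues and in immune cells, which is not a heat producer, was at 92.9, 242, 150 and 453 normalized counts in *Fnip2* C/C WAT and at 82.1, 77.8, 163, 67.4 and 103 in *Fnip2* T/T WAT. Mouse 638 was again the highest, and *Fnip2* T/T mouse 609 overlapped the *Fnip2* C/C range. Its log2 fold change was 1.07 ± 0.40 (interval 0.21 to 1.93) with an adjusted p of 0.0562 by limma and an exact permutation p of 0.0794 (two-sided, unadjusted). It passed in 7 of 21 alternatives. Among them were edgeR's quasi-likelihood test (adjusted p 0.0387), DESeq2 (0.0104) and limma without mouse 590 (1.43, adjusted p 0.0107). Without mouse 638 it was 0.67 and did not pass (adjusted p 0.16 by limma). Macrophage genes, a cell type that expresses *Ucp2*, summed to 3041, 6205, 4309 and 5676 in *Fnip2* C/C mice and to 3849, 3215, 4677, 2792 and 2885 in *Fnip2* T/T mice. In each genotype the mice with the highest sums (593 and 638, and 609) were those with the highest *Ucp2*. Not all mice followed that order, as *Fnip2* T/T mouse 658 had more *Ucp2* than mouse 607 (103 against 82.1) at a lower sum (2885 against 3849). Of the 9 macrophage genes, *C1qa* was higher and *Adgre1* and *Cd68* were lower in *Fnip2* C/C mice by limma (33.3% called, beside 32.1% of all genes). Their part in the *Ucp2* difference was not tested.

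A list of the uncoupling protein family and the ADP/ATP carriers had 7 genes tested in WAT. It also held *Slc25a44*, a mitochondrial carrier of neither group. Of the 7, 2 were lower in *Fnip2* C/C WAT and none was higher (28.6% called, beside 32.1% of all genes). The list median, −0.45, was the value of *Slc25a44* itself, so it does not describe a shift of the family. Both were ADP/ATP carriers, which exchange nucleotides across the inner membrane. *Slc25a5* was at 68.7 ± 32.5 against 207 ± 78.9 (−1.58, adjusted p 0.00485 by limma), and *Slc25a4* at 832 ± 98.5 against 1206 ± 94.1 (−0.54, adjusted p 0.0238 by limma). None of the 4 CIDE and ELOVL family genes tested passed, beside 32.1% of all genes, and so few genes do not set the family apart. The lowest p values among them belonged to *Elovl1* (0.70, adjusted p 0.103 by limma) and *Elovl5* (−0.41, adjusted p 0.368 by limma). An unadjusted p under 0.05 by limma was found for 1 of the 4, beside 43.9% of all genes.

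*Prdm16* was at 23.5, 15.0, 31.4 and 31.6 normalized counts in *Fnip2* C/C WAT and at 27.1, 39.9, 30.1, 43.6 and 71.2 in *Fnip2* T/T WAT. Mouse 658 was the highest of all, as for *Ucp1*. Mouse 638 was the highest *Fnip2* C/C mouse only by a small margin (31.6 against 31.4 in mouse 599). The genotype difference on the log2 scale was −0.69 ± 0.33 (interval −1.41 to 0.03, adjusted p 0.126 by limma), and it was negative under every alternative run. Of 15 tested partners and antagonists of PRDM16, 3 were higher and 2 lower in *Fnip2* C/C mice (33.3% called, beside 32.1% of all genes, median 0.19). *Ctbp1*, a corepressor that PRDM16 binds, was lower (74.9 ± 2.43 against 194 ± 71.6; −1.27, adjusted p 0.00473 by limma). *Med1*, the Mediator subunit through which PRDM16 reaches the polymerase, was higher (577 ± 63.3 against 391 ± 9.95; 0.55, adjusted p 0.0144 by limma), and neither gene overlapped between the genotypes, as for 26.1% of all genes.

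*Ppargc1a* was at 63.5, 13.1, 31.4 and 76.1 normalized counts in *Fnip2* C/C WAT and at 61.5, 23.3, 25.7, 49.6 and 55.3 in *Fnip2* T/T WAT. The *Fnip2* T/T range lay within a wider *Fnip2* C/C range (2.64-fold against 5.81-fold), whose lowest library was that with ovary genes, 593. No difference was detectable (−0.08 ± 0.48 on the log2 scale), and the interval from −1.11 to 0.95 covers changes in either direction (adjusted p 0.916 by limma). Its sign changed under several alternatives, to 0.41 without mouse 593. The genes nearest to it in pattern were *Irgm1* (0.30), *Tsnax* (0.32) and *Acss3* (0.32), against an SD of 0.82 for *Ppargc1a* itself.

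*Ppargc1b* was at 358, 107, 270 and 752 normalized counts in *Fnip2* C/C WAT and at 194, 157, 153, 107 and 203 in *Fnip2* T/T WAT. A set of 3 *Fnip2* C/C mice lay above all *Fnip2* T/T mice, with 638 the highest, and mouse 593 lay with the lowest *Fnip2* T/T mouse. On average *Ppargc1b* differed by a log2 fold change of 0.90 ± 0.43 (interval −0.03 to 1.82, adjusted p 0.125 by limma, exact permutation p 0.19). It passed in DESeq2 (adjusted p 0.0177), and in limma without mouse 593 (1.39, adjusted p 0.00768), and it was 0.45 without mouse 638. The genes nearest in pattern were *Gm13421* (0.22), *St6galnac5* (0.28) and *Trim65* (0.33).

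Of 20 regulators of PGC-1 tested, 2 were higher and 2 lower in *Fnip2* C/C WAT (20% called, beside 32.1% of all genes), with a median of 0.17. *Mapk14*, the p38 kinase that activates PGC-1α, was lower (102 ± 43.7 against 338 ± 67.5; −1.78, adjusted p 0.000804 by limma). *Trp53inp2*, a nuclear cofactor that also takes part in autophagy, was lower too (36.0 ± 14.4 against 241 ± 134; −2.57, adjusted p 0.00168 by limma). The pair that was higher, named after their values were seen, was *Crtc3*, a coactivator of CREB (0.75, adjusted p 0.0125 by limma), and *Prmt1*, an arginine methyltransferase (1.15, adjusted p 0.0327 by limma).

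*Esrra*, the gene of ERRα, was at 38.8, 35.6, 27.1 and 50.4 normalized counts in *Fnip2* C/C WAT and at 83.7, 63.2, 55.8, 67.4 and 63.7 in *Fnip2* T/T WAT. Every *Fnip2* C/C library was below every *Fnip2* T/T library, as for 13.8% of all genes tested (26.1% in either direction). The log2 fold change was −0.82 ± 0.23 (interval −1.32 to −0.32, 0.567-fold), with an adjusted p of 0.0182 by limma and an exact permutation p of 0.0159 (two-sided, unadjusted), the smallest that 126 groupings allow. It passed in edgeR (0.0185) and in DESeq2 (0.00832). The call was lost without *Fnip2* C/C mouse 599 (−0.67, adjusted p 0.0549 by limma) and without *Fnip2* T/T mouse 607 (−0.74, adjusted p 0.0527 by limma). It held without mice 593 and 609 together (−0.86, adjusted p 0.0299 by limma) and without 638 and 658 together (−0.98, adjusted p 0.027 by limma). Among mice numbered up to 609, the levels were 27.1 to 38.8 against 55.8 to 83.7, and from 638 on they were 50.4 against 63.7 and 67.4. In contrast to *Ucp1* and *Cidea*, *Esrra* had an SD within genotypes of 0.28, which ranked 9801st of the 12798 genes. The genes nearest in pattern were *6330403L08Rik* (0.13), *Sdr42e1* (0.15) and *Bmt2* (0.16). They were lower in *Fnip2* C/C mice by 0.72 to 0.99 on the log2 scale. Choosing genes by a pattern that holds the genotype difference largely sets this direction.

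Target genes of PGC-1 and the ERR proteins in mitochondrial metabolism gave more calls in the lower than in the higher direction in *Fnip2* C/C WAT. Of 30 tested, 12 were lower and 4 higher (53.3% called, against 32.1% of all genes), and the median log2 fold change was −0.49 against 0.02. *Sod2*, the manganese superoxide dismutase, was lower (74.4 ± 34.6 against 512 ± 265; −2.72, adjusted p 0.00106 by limma), as was *Slc25a20*, the carnitine-acylcarnitine carrier (44.2 ± 10.7 against 158 ± 50.5; −1.79, adjusted p 0.00102 by limma). Enzymes and subunits of the tricarboxylic acid cycle and of the respiratory chain were among the others called lower, such as *Idh3b* (−1.91), *Cs* (−1.54), *Atp5b* (−1.45) and *Ndufs1* (−1.05). *Etfdh* (1.15), *Vegfa* (0.85), *Mfn1* (0.60) and *Uqcrc1* (0.59) were higher, and these 8 genes were named after their values were seen. Between 10 and 16 targets were called lower when 1 mouse was left out, and 9 without mice 638 and 658. The number called higher ranged from 2 (without mouse 638, 607 or 657, or without 638 and 658 together) to 7 in DESeq2, which called 14 lower. It was 6 with library weights, without mouse 609, and without mice 593 and 609. White adipocyte genes, which were lower in *Fnip2* C/C WAT with a median of −1.08, and blood genes moved in the same direction as these targets.

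**Figure D3:**
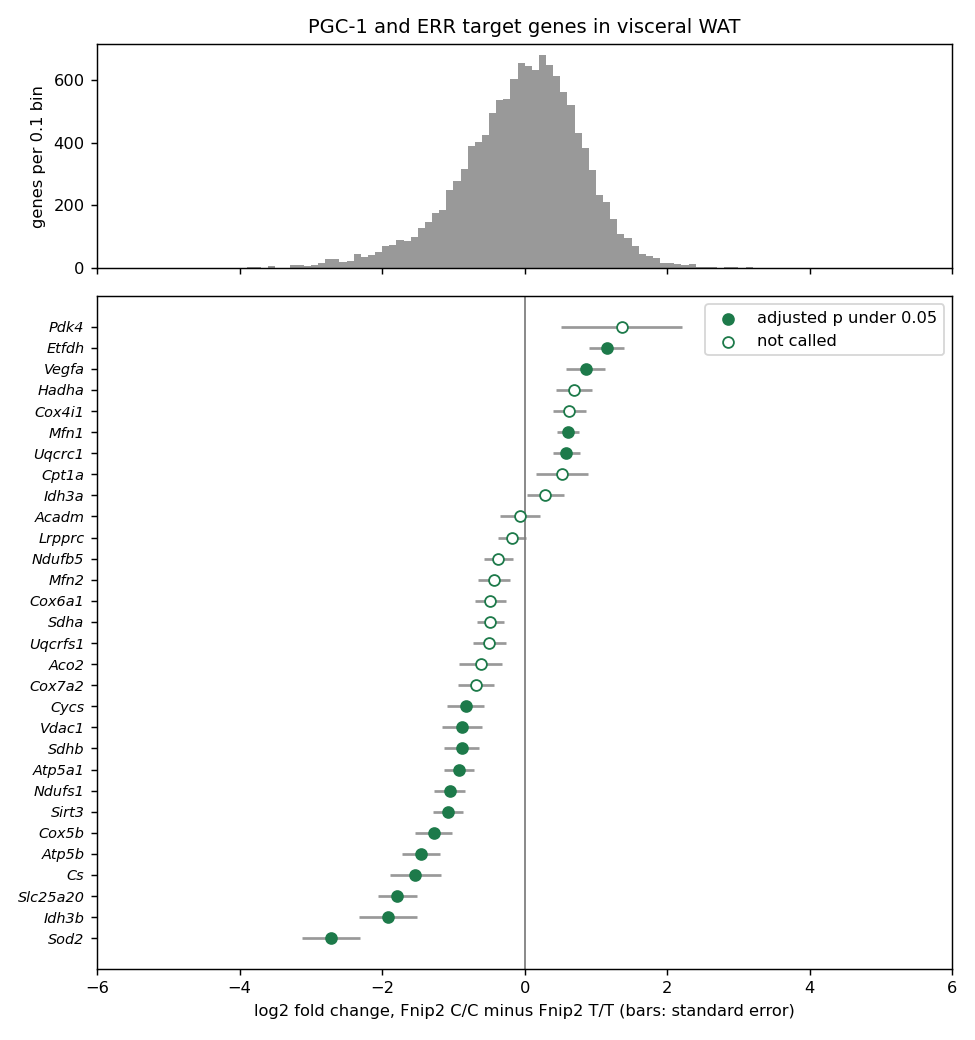
Log2 fold changes (*Fnip2* C/C minus *Fnip2* T/T) in visceral WAT of the 30 PGC-1 and ERR target genes tested, with standard errors (lower panel, filled where the adjusted p was under 0.05), under the distribution over all 12798 genes tested (upper panel, genes per bin of 0.1). More of the filled points lie left of 0 (12) than right of it (4).

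*Nrf1* was at 40.0, 50.5, 28.2 and 59.7 normalized counts in *Fnip2* C/C WAT and at 53.3, 73.9, 50.2, 74.4 and 62.9 in *Fnip2* T/T WAT. The ranges overlapped between 50.2 and 59.7. It differed by −0.52 ± 0.26 (interval −1.07 to 0.03, adjusted p 0.132 by limma), and it passed with library weights (−0.77, adjusted p 0.0236 by limma). Of 14 tested transcription factors that partner with PGC-1, 1 was lower and none was higher (7.14% called, beside 32.1% of all genes), with a median of −0.09. *Gabpb1*, a subunit of the factor GABP, was lower (8.11 ± 5.62 against 20.4 ± 2.20; −1.41, adjusted p 0.02 by limma), and its partner subunit *Gabpa* was at 58.8 ± 19.8 against 31.5 ± 9.90 (0.87, adjusted p 0.0532 by limma).

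*Tfam* was at 65.9, 88.0, 45.5 and 83.2 normalized counts in *Fnip2* C/C WAT and at 55.8, 42.8, 50.2, 45.6 and 50.8 in *Fnip2* T/T WAT. Apart from mouse 599, the *Fnip2* C/C mice lay above all *Fnip2* T/T mice. *Tfam* differed by 0.48 ± 0.23 (interval −0.02 to 0.98, adjusted p 0.131 by limma), so that its point estimate was opposite in sign to those of *Esrra* and *Nrf1*, and it passed without mouse 599 (0.67, adjusted p 0.0432 by limma). Of 15 tested genes of mitochondrial DNA maintenance and transcription, 3 were lower and none was higher (20% called, beside 32.1% of all genes, of which 17% were lower, median −0.11). *Lonp1*, the matrix protease that degrades TFAM, was lower (51.4 ± 14.8 against 189 ± 102; −1.74, adjusted p 0.00438 by limma), as was *Mterf2*, which binds mitochondrial DNA (6.51 ± 1.74 against 25.02 ± 10.9; −1.70, adjusted p 0.00834 by limma), and the third was the polymerase *Polg* (−0.60, adjusted p 0.0143 by limma), named after its values were seen.

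In liver, *Ucp1* and *Cidea* have no row, in a table whose rows all hold at least 10 reads over the labelled libraries. *Prdm16* fell below the minimum mean for testing there (mean 5.92), with 3.10 to 7.24 normalized counts in *Fnip2* C/C and 2.83 to 12.2 in *Fnip2* T/T mice. None of the other 7 genes was called (adjusted p 1.00 for each by limma), and none had an unadjusted p under 0.05 by limma, edgeR or DESeq2. Over all genes, 231 (1.97%) had an unadjusted p under 0.05 in limma, 249 in edgeR and 225 in DESeq2, and none passed after adjustment in any of them.

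**Figure D4:**
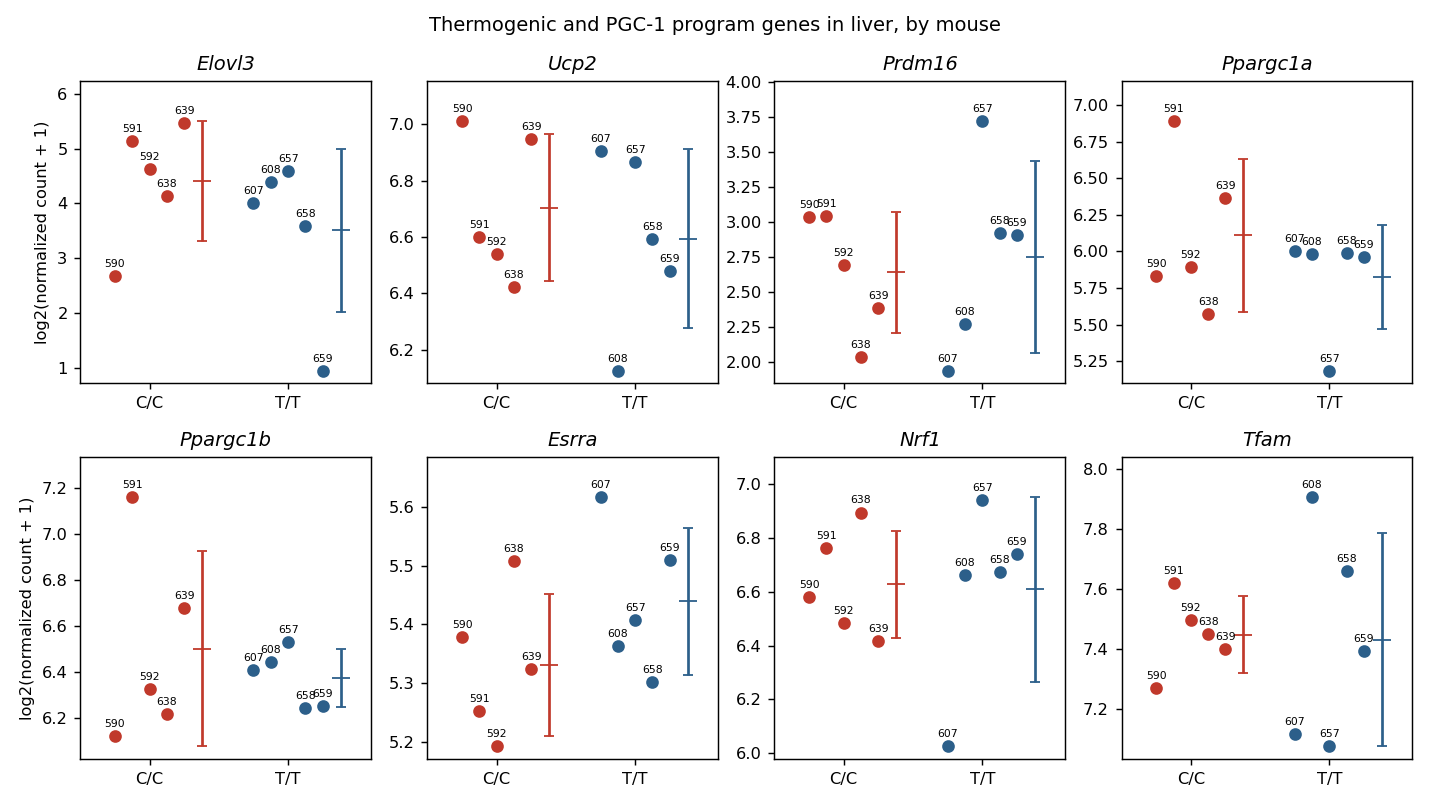
The 8 genes with a row in the liver table as log2(normalized count + 1), 1 point per mouse with its number, and the mean ± SD of each genotype (5 *Fnip2* C/C in red, 5 *Fnip2* T/T in blue) as a bar; each panel has its own axis. The genotypes overlap for every gene.

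*Elovl3* was the most variable of them, at 5.41, 34.4, 23.7, 16.6 and 43.3 normalized counts in *Fnip2* C/C mice 590, 591, 592, 638 and 639 and at 15.1, 20.1, 23.2, 10.98 and 0.928 in *Fnip2* T/T mice 607, 608, 657, 658 and 659. The *Fnip2* T/T range was 24.96-fold, and mouse 659, the lowest, had a count close to 1 read. Its log2 fold change was 0.91 ± 0.75 (interval −0.75 to 2.56), and it was 0.27 without mouse 659. Its SD within genotypes, 1.30, ranked 55th of 11710 genes (the top 0.47%).

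*Ppargc1a*, which drives gluconeogenesis in the fasted liver, was at 55.9, 118, 58.3, 46.6 and 81.3 in *Fnip2* C/C and at 63.2, 62.1, 35.4, 62.6 and 61.3 in *Fnip2* T/T livers. A group of 4 *Fnip2* T/T mice lay close together, and mouse 657 lay below them. The log2 fold change was 0.29 ± 0.24 (interval −0.21 to 0.78). *Ppargc1b* was at 68.6, 142, 79.3, 73.5 and 101 against 84.0, 86.0, 91.4, 74.7 and 75.2 (0.13 ± 0.18, interval −0.26 to 0.51). Mouse 591 was the highest of all livers for both coactivators, and without it the log2 fold changes were 0.09 for *Ppargc1a* and −0.04 for *Ppargc1b*. The genes nearest to *Ppargc1a* in pattern over the 10 livers were *Crebl2* (0.20), the urea cycle gene *Cps1* (0.22) and *Rbm17* (0.22), and those nearest to *Ppargc1b* were *Yeats2* (0.14), *Tob2* (0.14) and *Pank1* (0.16).

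*Esrra* held a narrow range in liver, 40.6, 37.1, 35.6, 44.5 and 39.1 in *Fnip2* C/C against 48.1, 40.1, 41.5, 38.4 and 44.5 in *Fnip2* T/T mice. The log2 fold change was −0.11 ± 0.17, with an interval of −0.46 to 0.24. That interval does not hold the WAT estimate but overlaps the WAT interval, −1.32 to −0.32. The nearest genes were *Atp6v0b* (0.07), *Copg1* (0.07) and *Rab22a* (0.08). *Ucp2* was at 84.8 to 128 against 68.8 to 119 (0.11 ± 0.17, interval −0.25 to 0.47), *Nrf1* at 84.5 to 118 against 64.2 to 122 (0.02 ± 0.17, interval −0.34 to 0.38) and *Tfam* at 153 to 195 against 134 to 239 (0.02 ± 0.16, interval −0.31 to 0.35).

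None of the pathway lists had a called gene in liver, by limma. The list genes with the lowest p there were *Sirt3* (0.21), *Tmem26* (0.39), *Slc25a4* (0.14), *Elovl2* (0.10), *Nfia* (−0.22), *Pprc1* (−0.43), *Lpin1* (1.08), *Polg* (−0.20) and *Mfn1* (0.27). *Mfn1*, a fusion protein of the outer mitochondrial membrane, was the only one of them with an unadjusted p under 0.05 (0.0484, adjusted p 1.00 by limma). The 29 PGC-1 and ERR targets tested in liver had a median of 0.04.

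**Figure D5:**
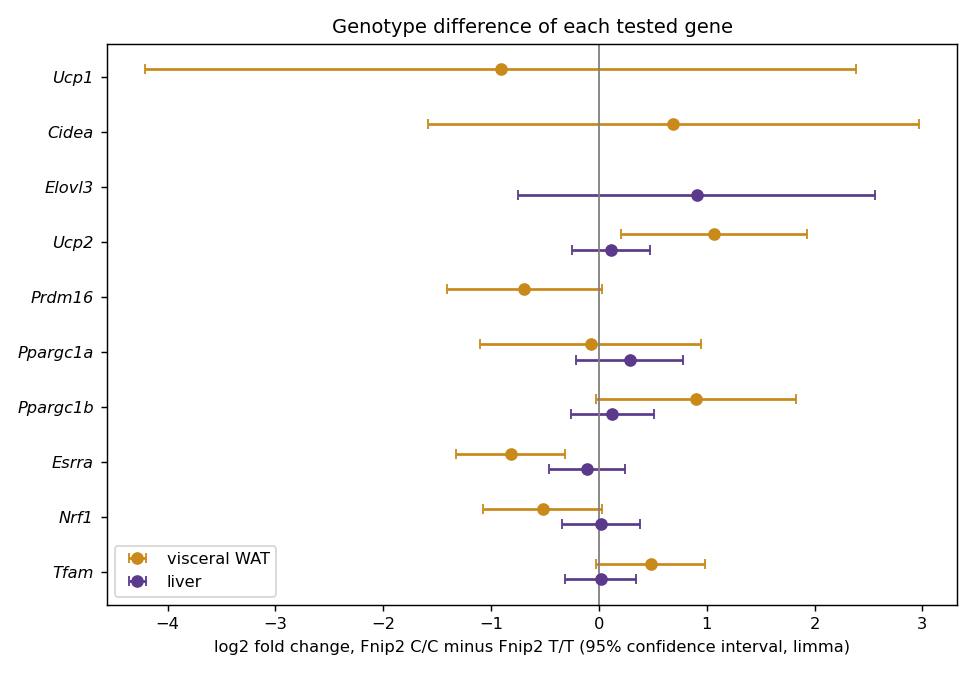
Log2 fold change (*Fnip2* C/C minus *Fnip2* T/T) of each tested gene in visceral WAT (9 genes) and liver (7 genes), with its 95% confidence interval from limma. The WAT intervals of *Esrra* and *Ucp2* exclude 0, those of *Ucp1* and *Cidea* are the widest, and every liver interval includes 0.

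Whether the genotype difference itself differed between the tissues could be tested for 6 of the genes, those kept in both tables. *Esrra* passed in limma's interaction contrast (−0.71 ± 0.26, interval −1.25 to −0.18, adjusted p 0.0425), beside 29.1% of 10403 genes. With the mouse as a replicate block it did not (adjusted p 0.0557 by limma), nor when any of 9 of the 13 mice was left out. *Ucp2* differed by 0.96 ± 0.45 (adjusted p 0.115 by limma), *Ppargc1b* by 0.77 ± 0.49 (0.248), *Nrf1* by −0.54 ± 0.30 (0.177), *Tfam* by 0.46 ± 0.27 (0.201) and *Ppargc1a* by −0.36 ± 0.56 (0.658), none of them past the threshold.

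The tables were normalized apart, so levels in the tissues are set side by side in RPM, with no test. *Esrra* was at 7.95 ± 1.91 (SD, n = 4) in *Fnip2* C/C WAT and 14.9 ± 3.37 (n = 5) in *Fnip2* T/T WAT, and at 5.81 ± 0.45 and 6.32 ± 0.54 (n = 5 each) in liver. *Ppargc1b* was at 76.2 ± 55.0 and 36.1 ± 8.92 in WAT and at 13.8 ± 4.68 and 12.2 ± 1.06 in liver. *Ppargc1a* was at 9.41 ± 5.67 and 9.69 ± 4.34 in WAT and at 10.7 ± 4.41 and 8.48 ± 1.86 in liver, 4 means within their spread. *Tfam* was at 14.9 ± 4.71 and 10.9 ± 1.58 in WAT and higher in both liver groups, at 25.7 ± 2.80 and 26.3 ± 7.24. *Ucp2* was at 49.5 ± 32.7 and 21.5 ± 7.08 in WAT and at 15.5 ± 2.89 and 14.4 ± 2.62 in liver. *Nrf1* was at 9.41 ± 3.04 and 13.97 ± 2.76 in WAT and at 14.6 ± 2.13 and 14.7 ± 3.40 in liver. *Elovl3* was at 1.74 ± 1.43 and 1.73 ± 2.38 in WAT and at 3.61 ± 2.11 and 2.07 ± 1.30 in liver, and *Prdm16* at 5.27 ± 1.497 and 9.31 ± 3.55 in WAT and at 0.814 ± 0.30 and 0.951 ± 0.54 in liver.

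The mouse with the highest *Ucp2* in WAT did not stand out in liver. Mouse 638 had 92.6 RPM of *Ucp2* in WAT and 12.1 in liver, and the corresponding values for *Ppargc1b* were 154 and 10.5. In mouse 658 *Prdm16* was at 15.0 RPM in WAT and at 0.964 in liver.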

How the data were processed

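RNA of visceral WAT and liver was converted to QuantSeq 3′ FWD libraries from 500 ng and 250 ng of total RNA and read as single reads on a NextSeq. The submitters' processing notes list FastQC 0.11.9, HISAT2, SAMtools 1.12, HTSeq, DESeq2 and GRCm39, with no roles. The authors deposited 1 table per tissue whose signal values are gene read counts divided by 1 size factor per library, with the 4 runs of each mouse combined (76 run samples, 19 libraries). The WAT table has 1 column without a label, which was left out. Division by the smallest step of a library gave whole reads for 100% of the values, within 1e-06.

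A pseudocount of 1 was added and log2 taken, and all genes averaging at least 10 in a tissue were fitted with limma 3.58.1 in R 4.3.3 (lmFit, eBayes with trend and robust), with genotype as the term and Benjamini-Hochberg adjustment over all genes tested. The interaction was fitted over all 19 libraries. Exact permutation tests were two-sided, over 126 groupings in WAT and 252 in liver. edgeR 4.0.16 (quasi-likelihood) and DESeq2 1.42.0 were run on the recovered reads. Mice are separate animals. The members and gene lists were chosen with earlier results of these data known. The text names the 10 genes, the 3 genes nearest in pattern to *Ucp1*, *Cidea*, *Ppargc1a*, *Ppargc1b* and *Esrra*, and from each list the 2 genes with the lowest p in WAT and the 1 in liver. Other genes were named after their values were seen. The fits were tested on simulated data. Any windows of the 10 genes on chr18 were left out of the promoter search, which covered 7 of the genes. No protein sequences were used here.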

Additional observations from a re-analysis of the deposited data

Results flagged for a closer look

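Of 36 groups of 4 or 5 mice examined (each gene with a row, by tissue and genotype, on the log2 scale), 3 had a mouse farther from the others than Dixon's 95% critical value allows, where chance gives about 1 in 20. *Ucp1* in *Fnip2* T/T WAT had mouse 658 far above the others, with a gap of 0.727 of the group's range. *Ppargc1a* in *Fnip2* T/T liver had mouse 657 far below the others (0.946), and *Elovl3* in *Fnip2* T/T liver had mouse 659 far below (0.723). Mouse 638, though the highest *Fnip2* C/C library for 8 of the 10 genes in WAT, did not pass that value for any of them.

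The genotype difference of *Esrra* was larger in WAT than in liver by limma's interaction contrast (−0.71 on the log2 scale, adjusted p 0.0425), which 29.1% of 10403 genes passed. With the mouse as a replicate block the adjusted p was 0.0557 by limma. The call was also lost when any of 9 of the 13 mice was left out.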

How the results depend on the processing

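In WAT, 1 of the 9 genes tested was called in the analysis reported, beside 4111 of all 12798 genes. The count was 2 with a minimum mean of 50, under which fewer of the 9 were tested (3196 of all 8095 called). It was 2 as well with quantile normalization (4068 of 12798) and in edgeR (4144 of 12798). With library weights (4802 of 12798) and in DESeq2 (4722 of 12798) it was 3. With each mouse left out in turn the count lay between 0 and 2, where 3010 to 4273 of all genes were called. Leaving out mice 593 and 609 together, chosen after seeing the data, gave 2 (4082 of all 12697 called). In liver no gene was called under any of 21 alternatives, which included a term for even and odd RNA label numbers that was chosen after seeing the data. That term was fitted beside the labelled genotype, so it does not test another assignment of the livers. In the interaction, the count of 1 became 0 with the paired analysis (replicate block), without a filter, with a minimum mean of 50, under which *Esrra* was not tested, and with quantile normalization, and ranged from 0 to 2 with each mouse left out. The within-mouse correlation in that paired fit was −0.115, and it called 2752 genes against 3032.

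*Esrra* in WAT was lower in *Fnip2* C/C mice under all 21 alternatives (−1.03 to −0.67). Values that were not called changed sign for several genes. *Ppargc1a* in WAT was 0.048 with quantile normalization, 0.057 with a term for mouse numbers, 0.046 in edgeR, 0.085 in DESeq2, 0.25 without mice 593 and 609, and −0.41 to 0.41 with each mouse left out. *Cidea* was −0.12 with library weights and −0.34 to 1.31 with each mouse left out, and *Ucp1* −2.09 to 0.061. In liver, *Nrf1* was −0.0054 with library weights, −0.0042 in edgeR and −0.13 to 0.10 with each mouse left out. *Tfam* was −0.064, −0.00057 and −0.024 with library weights, the mouse number term and edgeR, −0.017 in DESeq2 and −0.071 to 0.14 with each mouse left out. The corresponding ranges were −0.0066 to 0.19 for *Ucp2* and −0.039 to 0.22 for *Ppargc1b*, and the interaction of *Ppargc1a* ran from −0.83 to 0.12.

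Leaving out mice 638 and 658 lowered the genes called in WAT from 4111 to 2225. *Elovl3* in WAT and *Prdm16* in liver fell below the chosen minimum mean. Without that filter they differed by 0.49 (adjusted p 0.73) and −0.11 (adjusted p 1.00) in limma.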
